A study of Mus musculus with 4 samples.

Results

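The miR-290 and miR-302 clusters are 2 groups of microRNA (miRNA) genes that mark mouse embryonic stem cells (ESCs). RAD21, a core subunit of the cohesin ring, was examined around them in ESCs and in embryoid bodies (EBs), aggregates in which ESCs differentiate. The members were taken from the GENCODE annotation of the mouse genome build mm9. They were the 7 hairpin genes from Mir290 to Mir295, the 5 hairpin genes of the miR-302 cluster and Larp7, the gene whose intron holds the latter, 13 of 37310 annotated genes. RAD21 binding sites were assigned to a cluster when their summit lay within 100 kb of its first to last hairpin. This gave 5 of the 15311 deposited ESC sites and 4 of the 11022 EB sites.

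All cells were of the mouse line R1/E and expressed, beside their own untagged RAD21, a GFP fusion of it from a stably integrated bacterial artificial chromosome, and the drug-resistant clones had been sorted for GFP. ESCs were kept with LIF and taken at day 0, and EBs were grown from the same tagged line by the hanging drop method and taken at day 12. Chromatin was precipitated with a goat antibody against eGFP (RAD21 libraries) or with a goat IgG isotype control (IgG libraries, which the submitters also describe as input DNA). There was 1 library of each kind per cell type, so the comparisons are between 4 libraries, without replicates and without a test across conditions. Autosomal depth was 13714772 reads for RAD21 and 12602155 for IgG in ESCs, and 7740389 reads for RAD21 and 6929293 for IgG in EBs. Read counts are given as counted or as RPM, in which the autosomal reads of each library are scaled to 1000000,, and ratios carry exact 95% Clopper-Pearson intervals that cover counting error only. A ratio is called different when its interval leaves out 1. EBs are mixtures of cell types, so that fewer cells with RAD21 at a site and less RAD21 per cell cannot be told apart.

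A miRNA is cut from a hairpin transcript and pairs with messenger RNAs mainly through its seed, bases 2 to 8 of the mature strand. The miR-290 and miR-302 families are known as abundant miRNAs of the pluripotent state that favour the rapid ESC cell cycle, with miR-290 prevailing in naive ESCs and miR-302 in the primed cells of the epiblast. Cohesin holds sister chromatids together and forms chromatin loops, and many of its sites coincide with those of the insulator protein CTCF. In ESCs it is also found at enhancers bound by pluripotency factors.

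The miR-290 cluster spans 2216 bp of intergenic sequence on the plus strand, chr7:3218627-3220842, with Mir290, Mir291a, Mir292, Mir291b, Mir293, Mir294 and Mir295 in this order. Its neighbours within 100 kb were 4 protein-coding genes, among them Nlrp12, an innate immune receptor gene on the minus strand whose end faces Mir295. The miR-302 cluster spans 580 bp, chr3:127248146-127248725, with Mir302b, Mir302c, Mir302a, Mir302d and Mir367. It lies in intron 8 of the 13-exon gene Larp7 (chr3:127239872-127256266), on the opposite strand to it. The hairpins measured 66 to 84 bp, and the 11 hairpins found in the RefSeq sequences (GRCm38.p6) were identical to the mm9 sequence at the annotated positions.

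The 3p strands below are shown because they tie the clusters together, with the seed in capitals. The sequences are from RefSeq (GRCm38.p6), which gave a mature sequence for all 12 hairpin genes and a 3p strand for 10 of them. The 3p strands of Mir292 and Mir302a were missing, so their seeds could not be compared.
miR-291a-3p: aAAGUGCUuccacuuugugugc
miR-294-3p: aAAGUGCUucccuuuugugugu
miR-295-3p: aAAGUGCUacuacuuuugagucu
miR-302b-3p: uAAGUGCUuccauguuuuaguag
miR-302d-3p: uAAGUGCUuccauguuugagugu
miR-302c-3p: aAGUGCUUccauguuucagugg
miR-290a-3p: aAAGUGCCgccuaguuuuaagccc
miR-291b-3p: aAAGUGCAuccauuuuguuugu
miR-293-3p: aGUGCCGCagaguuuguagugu
miR-367-3p: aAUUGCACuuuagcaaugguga

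The first 5 share the seed AAGUGCU, 3 from chromosome 7 and 2 from chromosome 3, and no other of the 1738 mature miRNAs in the table has it. The listed miR-302c-3p begins 1 base later, so that its seed reads AGUGCUU. The letters AGUGC stand within the first 8 bases of 9 of the 10 strands, against 34 of the 1738 mature miRNAs (1.96%). The exception is miR-367-3p, whose seed AUUGCAC is shared by 6 mature miRNAs of the table. The letters AGUGC were set by hand as a core of these seeds, and the 34 miRNAs include the 9 members. The contrast is therefore a description. The 5p strands fall into other seed groups, such as CUCAAAC of miR-290a-5p, miR-292a-5p and miR-293-5p.

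None of the 9 sites near the clusters was shared between the cell types. Of all deposited sites, 48.5% of those in ESCs overlapped an EB site by at least 1 bp, and 67.8% of those in EBs overlapped an ESC site. Around the miR-290 cluster there were 4 ESC sites and 2 EB sites, and around the miR-302 cluster 1 ESC site and 2 EB sites. At least 1 site within 100 kb was present for 72.6% of the 1468 autosomal miRNA genes in ESCs and for 56.7% in EBs, so that having such a site did not set the clusters apart. The next site beyond the limit was an ESC site 110 kb past Mir295 (chr7:3330229-3331148), with 21 ESC and 3 EB RAD21 reads.

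**Figure D1:**
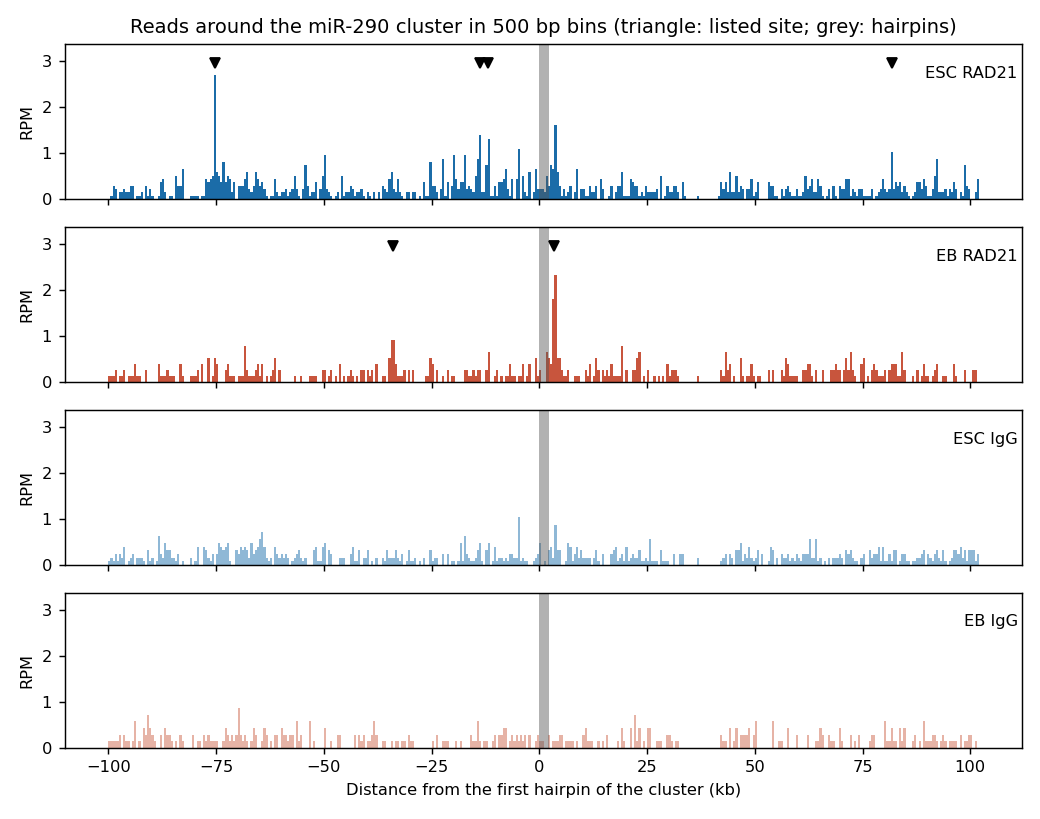
Reads in 500 bp bins from 100 kb before to 100 kb after the miR-290 cluster in the 4 libraries, in RPM, plotted against the distance from the first hairpin in kb. Triangles mark the deposited sites of the cell type, 4 in ESCs and 2 in EBs, and the grey bar marks the hairpins. A stretch to the right of the cluster holds almost no reads in any of the 4 libraries. The highest ESC RAD21 bin, with 37 reads, lies 75.3 kb before the cluster, and the highest EB RAD21 bin, with 18 reads, lies 3.75 kb after the first hairpin.

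The strongest ESC site of either region lay 75.1 kb before Mir290, in intergenic sequence (chr7:3142888-3143939, score 220.42, rank 1445 of the ESC list). Within 250 bp of its summit the ESC RAD21 library held 35 reads, the EB RAD21 library 6, the ESC IgG library 1 and the EB IgG library 2. RAD21 in the ESC library thus stood far above the other libraries. From ESCs to EBs the RAD21 ratio was 0.304 (0.104 to 0.730), a called difference, while EB RAD21 over EB IgG was 2.69 (0.480 to 27.2), not called.

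Closer to the hairpins, a pair of ESC sites stood 13.8 kb and 11.9 kb before Mir290, in the intergenic stretch between it and AU018091. The farther of them (chr7:3204392-3205211, score 54.09) held 19 ESC RAD21 reads, 2 EB RAD21 reads, 7 ESC IgG reads and 3 EB IgG reads. The nearer (chr7:3206158-3207172, score 53.05) held 21 ESC RAD21 reads, 3 EB RAD21 reads, 6 ESC IgG reads and 0 EB IgG reads. At both, the ESC RAD21 library was the highest, and the EB libraries held at most 3 reads. Both scores lay near the lowest of the ESC list, 50.01. The ESC RAD21 over IgG ratio was 2.49 (1.00 to 7.02) at the farther and 3.22 (1.26 to 9.74) at the nearer site. EB over ESC, the RAD21 ratio was 0.187 (0.0211 to 0.773) at the farther and 0.253 (0.0483 to 0.848) at the nearer one. Both calls depended on the counting. The call at the farther site was lost within 100 bp of the summit, with 0.177 (0.00408 to 1.25). That at the nearer site was lost within 500 bp, with 0.443 (0.163 to 1.04), and against windows of like GC content, with 0.379 (0.0723 to 1.27), a setting added after the data were seen.

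The 4th ESC site (chr7:3300216-3300669, score 54.72) lay 79.6 kb after Mir295 and 3169 bp from the start of Prkcc. This gene encodes the gamma form of protein kinase C. The score, too, lay near the lowest of the ESC list, 50.01. The site held 14 ESC RAD21 reads, 2 EB RAD21 reads, 1 ESC IgG read and 2 EB IgG reads. ESC RAD21 was the highest of the 4 libraries here too, but the EB over ESC ratio of 0.253 (0.0279 to 1.10) was not called. It was called lower in EBs under 3 other settings: within 100 bp of the summit, where the EB RAD21 library held 0 reads and the upper bound was 0.581, within 500 bp, with 0.280 and an interval below 1, and with the shared sites set to 1, with 0.197 (0.0217 to 0.857).

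The EB list had its own site right behind the miR-290 cluster. Its summit lay 1.29 kb after the end of Mir295, in an exon annotated as a UTR of Nlrp12 (chr7:3221637-3222571, score 178.26, rank 1890 of the EB list). The EB RAD21 library held 22 reads there, the ESC RAD21 library 18, the ESC IgG library 9 and the EB IgG library 0. With 0 EB IgG reads the EB RAD21 over IgG ratio had no finite value, and the lower bound of its interval was 4.90. The ESC RAD21 library also held many reads at this place, and it stood 1.84-fold (0.784 to 4.64) above ESC IgG, which was not called. After scaling to depth the EB over ESC RAD21 ratio was 2.17 (1.11 to 4.28). This call was lost when the median ratio of the 7328 shared autosomal sites was set to 1, with 1.68 (0.863 to 3.33). The IgG libraries differed in the opposite direction, with an upper bound of 0.921 for the EB over ESC IgG ratio. The part of this difference in the EB-only listing was not tested. In 500 bp bins the place was also the second highest of the ESC RAD21 library in the region, with 22 reads against 11 of ESC IgG, although it is in no ESC peak. This bin was the second highest of the ESC IgG library there as well. Of all autosomal bins, 99.8% held fewer ESC IgG reads.

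A further EB site lay 34.0 kb before Mir290 in intergenic sequence (chr7:3184396-3184910, score 62.14). It held 12 EB RAD21 reads, 11 ESC RAD21 reads, 3 ESC IgG reads and 1 EB IgG read. The RAD21 libraries were alike before scaling and the EB over ESC ratio was 1.93 (0.781 to 4.83), not called.

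**Figure D2:**
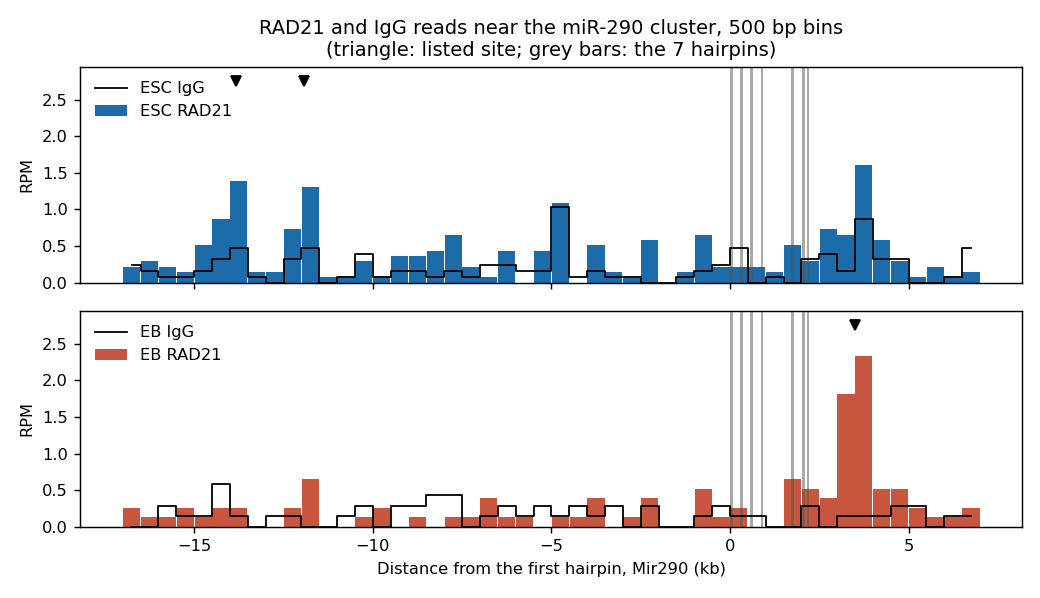
RAD21 reads (bars) and IgG reads (black line) of ESCs and EBs in 500 bp bins, in RPM, from 17 kb before to 7 kb after the first hairpin of the miR-290 cluster. Triangles mark deposited sites and grey bars the 7 hairpins, with 2 ESC sites before the cluster and 1 EB site after it. The ESC bin at the EB site holds 22 RAD21 and 11 IgG reads without an ESC triangle. The ESC bin 4.75 kb before the first hairpin holds 15 RAD21 and 13 IgG reads.

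RAD21 reads were also spread between the pair of upstream ESC sites and Mir290. This stretch of 11454 bp (chr7:3207173-3218626), chosen after its values were seen, holds no deposited site. It had 95 reads in the ESC RAD21 library, 25 in the EB RAD21 library, 49 in the ESC IgG library and 30 in the EB IgG library. ESC RAD21 exceeded ESC IgG by 1.78-fold (1.25 to 2.57), whereas EB RAD21 over EB IgG was 0.746 (0.421 to 1.31). Between the cell types the RAD21 ratio, EB over ESC, was 0.466 (0.287 to 0.731), while that of the IgG libraries was 1.11 (0.682 to 1.79). Of the autosomal tiles of this length, 90.5% had fewer ESC RAD21 reads and 19.5% fewer EB RAD21 reads, while 23.4% had fewer ESC IgG reads and 37.7% fewer EB IgG reads. ESC IgG was thus low here, with 49 reads against a median of 61, which raises the ESC ratio over IgG. In tiles of like GC content the mean EB over ESC RAD21 ratio was 0.915. The ESC IgG library reached its highest bin of the region in this stretch, 13 reads at 4.75 kb before the first hairpin, where ESC RAD21 had 15 reads, EB RAD21 1 and EB IgG 1. Of all autosomal bins, 99.9% held fewer ESC IgG reads than this one, and its part in the excess of ESC RAD21 reads was not tested.

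Reads were also counted over the wider region of 100 kb to each side, which takes in this stretch, with 1 kb on each side of every summit left out. ESC RAD21 over ESC IgG was 1.24 (1.13 to 1.37) near the miR-290 cluster, and EB RAD21 over EB IgG was 1.01 (0.873 to 1.16). EBs against ESCs gave a ratio of 0.690 (0.615 to 0.774) for RAD21 and 0.853 (0.751 to 0.966) for IgG. The GC content of this region was 45.3%. In autosomal windows of 501 bp with a GC content near 44.9%, the same ratio of mean reads was 0.864 for RAD21 and 0.863 for IgG. Near the miR-302 cluster, ESC RAD21 over ESC IgG was 1.02 (0.928 to 1.11) and EB RAD21 over EB IgG was 1.17 (1.04 to 1.33), with an EB over ESC RAD21 ratio of 1.07 (0.970 to 1.19).

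**Figure D3:**
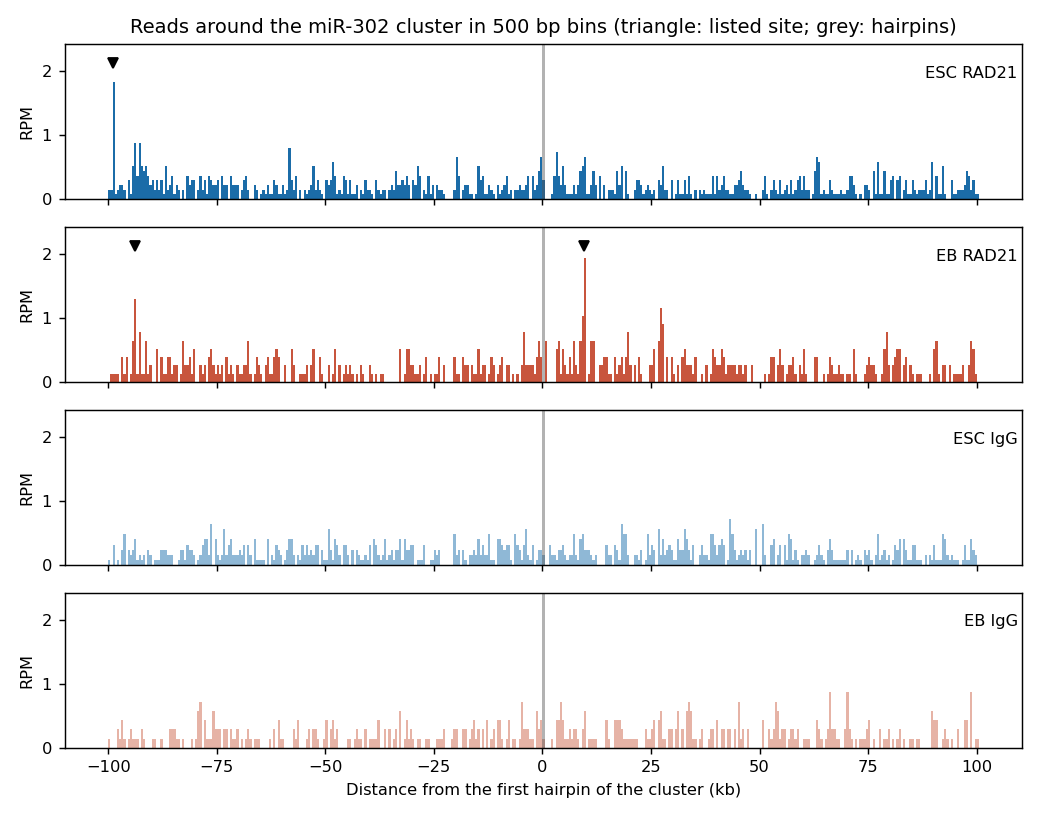
Reads in 500 bp bins from 100 kb before to 100 kb after the miR-302 cluster in the 4 libraries, in RPM, plotted against the distance from the first hairpin in kb. Triangles mark the deposited sites, 1 in ESCs and 2 in EBs, and the grey bar marks the hairpins. The highest ESC RAD21 bin, with 25 reads, lies 98.8 kb before the cluster, and the highest EB RAD21 bin, with 15 reads, lies 9.75 kb after the first hairpin.

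The miR-302 cluster had sites of both lists far upstream, about 5 kb from each other. The ESC site at 98.9 kb before the first hairpin (chr3:127149037-127149607, score 126.19, rank 4866) held 26 ESC RAD21 reads, 2 EB RAD21 reads, 4 ESC IgG reads and 0 EB IgG reads. Its EB over ESC ratio of 0.136 (0.0157 to 0.544) was the lowest of the 9 sites. The EB site at 93.9 kb (chr3:127153908-127154465, score 50.93) held 11 EB RAD21 reads, 14 ESC RAD21 reads, 3 ESC IgG reads and 2 EB IgG reads. RAD21 stood above IgG at this EB site in both cell types, 4.92-fold (1.07 to 45.7) in EBs and 4.29-fold (1.20 to 23.3) in ESCs, and the EB over ESC ratio of 1.39 (0.572 to 3.30) was not called. Ank2, the ankyrin gene on their far side, had the nearest gene start to both, 37.3 kb and 42.3 kb away.

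The EB site nearest to the miR-302 cluster lay 9.06 kb after Mir367, beyond the start of Larp7 and inside an intron of the neighbouring gene 4930422G04Rik (chr3:127257324-127258111, score 73.46). It held 17 EB RAD21 reads, 13 ESC RAD21 reads, 5 ESC IgG reads and 3 EB IgG reads. EB RAD21 was 5.07-fold (1.47 to 27.0) above EB IgG, and ESC RAD21 2.39-fold (0.799 to 8.56) above ESC IgG, the latter not called. Its EB over ESC ratio of 2.32 (1.06 to 5.19) was called. The call was lost when scaled to the reads of chromosome 3, with 2.08 (0.953 to 4.66), to the shared sites, with 1.80 (0.825 to 4.04), or to windows of like GC content, with 2.03 (0.927 to 4.54).

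**Figure D4:**
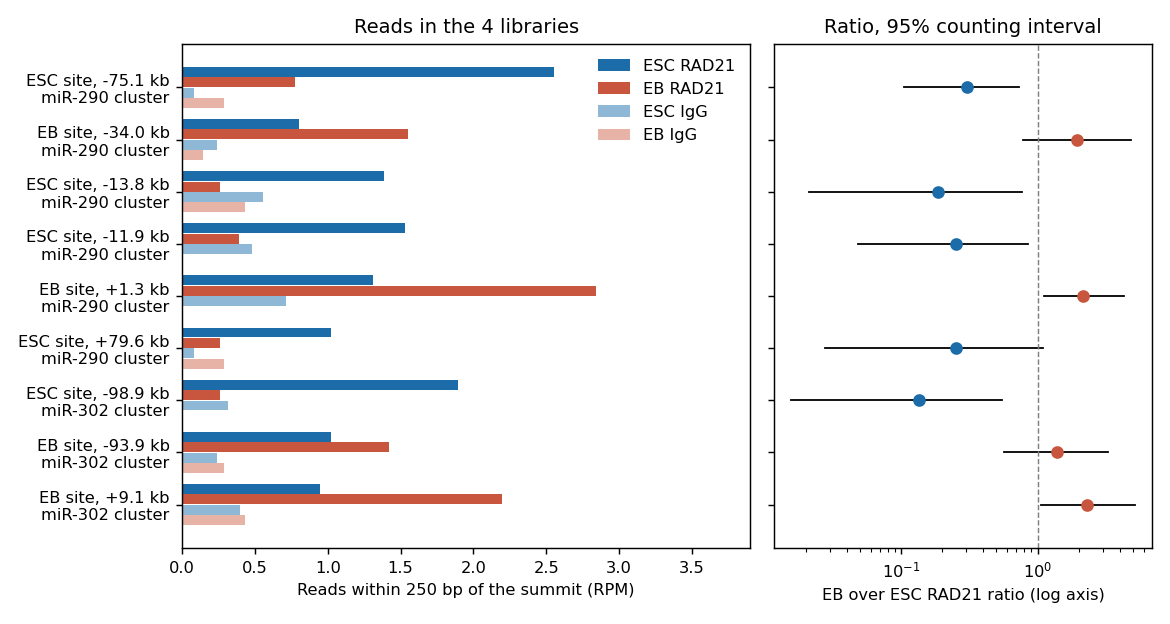
RPM within 250 bp of the summit in the 4 libraries (left, bars) and the EB over ESC RAD21 ratio with its 95% counting interval on a log axis (right) for the 9 sites within 100 kb of the clusters, ordered by position, with the distance given from the nearest hairpin of the cluster. ESC sites (blue points) lie below a ratio of 1 and EB sites (red points) above it, and 4 of the 5 ESC sites and 2 of the 4 EB sites have intervals that leave out 1.

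All 9 ratios lay on the side of the list that holds the site. The sites were listed from these same reads, so this direction is a description. The call was made for 4 of the 5 ESC sites as lower in EBs, against 42.1% of the autosomal ESC sites without an overlapping EB site. It was made for 2 of the 4 EB sites as higher in EBs, against 64.6% of the autosomal EB sites without an overlapping ESC site. With so few sites, neither share can be set apart from that of all sites. RAD21 over IgG was called above 1 at all 9 sites in the cell type that lists them. The peaks were listed for this excess, which was called at 98% of the autosomal sites listed in ESCs only and at 92.1% of those listed in EBs only, so nothing is read from it. In the other cell type RAD21 over IgG was called at 0 of the 5 ESC sites, against 16.5% of the ESC-only sites, and at 1 of the 4 EB sites, against 32.2% of the EB-only sites.

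The best match to the CTCF motif near each summit is shown so that the sites can be compared, since 3 of them pass a strict limit, 5 a looser one alone and 1 neither. Sequences are of mm9, read 5′ to 3′ along the motif, with the 20 bases of the match in capitals.
ESC site 75.1 kb before Mir290, chr7:3143511-3143550, minus strand: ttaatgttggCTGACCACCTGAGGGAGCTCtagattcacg
EB site 34.0 kb before Mir290, chr7:3184639-3184678, minus strand: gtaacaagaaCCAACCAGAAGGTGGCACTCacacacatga
ESC site 13.8 kb before Mir290, chr7:3204797-3204836, plus strand: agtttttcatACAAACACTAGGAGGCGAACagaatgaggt
ESC site 11.9 kb before Mir290, chr7:3206578-3206617, minus strand: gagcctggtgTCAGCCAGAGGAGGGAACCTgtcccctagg
EB site 1.29 kb after Mir295, chr7:3222094-3222123, plus strand: gtgacTTGGCCAGTAGATGGCAGTCttggt
ESC site 79.6 kb after Mir295, chr7:3300449-3300488, minus strand: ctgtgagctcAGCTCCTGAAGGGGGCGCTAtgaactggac
ESC site 98.9 kb before Mir302b, chr3:127149282-127149321, minus strand: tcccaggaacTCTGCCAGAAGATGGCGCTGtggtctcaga
EB site 93.9 kb before Mir302b, chr3:127154163-127154202, plus strand: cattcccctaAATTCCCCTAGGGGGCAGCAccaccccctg
EB site 9.06 kb after Mir367, chr3:127257856-127257895, minus strand: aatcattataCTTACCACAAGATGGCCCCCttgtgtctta

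A match was taken when its score was reached by at most 1e-05 of the positions of chromosome 19 on both strands, within 150 bp of the summit. It was present at 3 of the 9 sites. They were the EB site behind Mir295 with 23.2 bits, the ESC site 98.9 kb before the miR-302 cluster with 22.2 bits and the EB site 34.0 kb before Mir290 with 20.6 bits, against a limit of 20.1 bits. On the odd-numbered autosomes, which were not used to learn the motif, 39.9% of all ESC sites and 29.6% of all EB sites had such a match. At the looser limit of 1e-04 (10.3 bits), 8 of the 9 sites had a match, against 89.5% of all ESC and 83.8% of all EB sites. The site without one was the ESC site 13.8 kb before Mir290, whose best match scored 7.99 bits. Its neighbour at 11.9 kb passed with 12.6 bits.

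The octamer ATGCAAAT, which Oct factors bind, and the Esrrb pattern TCAAGGTCA were searched on both strands within 150 bp of the 9 summits. Neither was found at any of them, which says only that these letters are not in these windows. The octamer was present in 1.80% of ESC sites, 2.03% of EB sites and 2.58% of autosomal tiles of 301 bp, and the Esrrb pattern in 0.742% of ESC sites, 0.529% of EB sites and 0.651% of tiles.

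Across the hairpins themselves few reads were counted. The 2216 bp from Mir290 to Mir295 held 16 ESC RAD21, 9 EB RAD21, 9 ESC IgG and 2 EB IgG reads, and the 580 bp from Mir302b to Mir367 held 4, 2, 2 and 1. At this depth no RAD21 over IgG ratio over these whole spans was called in either cluster or cell type. Within 250 bp of the middle of each hairpin, the only such call was Mir293 in ESCs. It held 7 ESC RAD21 and 0 ESC IgG reads there, with a lower bound of 1.32.

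With 2 kb on both sides, the miR-290 cluster (6216 bp) held 77 reads in the ESC RAD21 library, 53 in the EB RAD21 library, 36 in the ESC IgG library and 9 in the EB IgG library. Both RAD21 libraries stood above their IgG library, by 1.97-fold (1.31 to 3.01) in ESCs and by 5.27-fold (2.58 to 12.2) in EBs. Among all autosomal tiles of this length, 98.5% had fewer ESC RAD21 reads and 98.8% fewer EB RAD21 reads. For IgG these shares were 58.3% in ESCs and 11.4% in EBs. In EBs over ESCs the ratio was 1.22 (0.843 to 1.75) for RAD21, not called, and 0.455 (0.193 to 0.962) for IgG. Without the 501 bp around the EB summit the window held 59, 31, 27 and 9 reads in the same order. RAD21 over IgG was then 2.01 (1.25 to 3.29) in ESCs and 3.08 (1.43 to 7.36) in EBs. The EB peak, 935 bp wide, reaches beyond these 501 bp. With 500 bp on each side of any summit left out, the ratios were 1.92 (1.13 to 3.35) in ESCs and 2.69 (1.10 to 7.48) in EBs.

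The miR-302 window (4580 bp) held 25 ESC RAD21, 17 EB RAD21, 15 ESC IgG and 11 EB IgG reads. RAD21 over IgG was 1.53 (0.777 to 3.12) in ESCs and 1.38 (0.611 to 3.27) in EBs, and the EB over ESC RAD21 ratio was 1.20 (0.611 to 2.32). None of these ratios was called. Of all tiles of this length, 44.2% had fewer ESC RAD21 reads and 63.4% fewer EB RAD21 reads.

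Taken one by one within 2 kb, the hairpin genes of a cluster share most of their reads and are not independent. ESC RAD21 over IgG was called above 1 for Mir292, Mir291b, Mir293, Mir294 and Mir295, with ratios from 1.89 to 2.07, and was not called at 1.84 for Mir290 and Mir291a. In EBs it was called for Mir293, Mir294 and Mir295, at 6.42, 7.16 and 7.16, and these 3 are the hairpins nearest to the EB site. No hairpin gene of the miR-302 cluster was called in either cell type. Over all autosomal miRNA genes, 7.15% were called in ESCs and 5.93% in EBs. The EB over ESC RAD21 ratio was called for none of the 12 hairpin genes, against 3.81% of all miRNA genes as higher and 4.97% as lower in EBs.

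**Figure D5:**
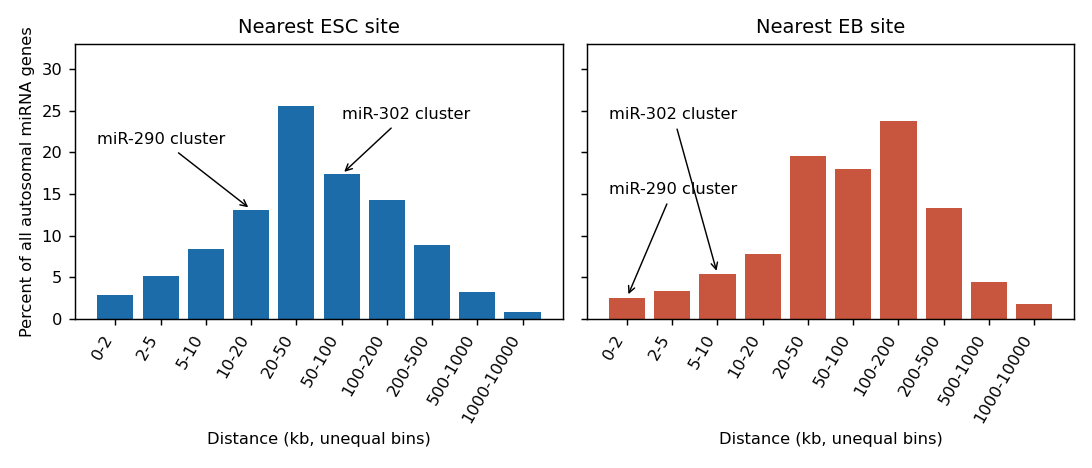
Distance from each of the 1468 autosomal miRNA genes to the nearest ESC site (left) and EB site (right), in bins of unequal width in kb, as a percentage of genes. Arrows mark the bins of the clusters, each measured from its nearest hairpin. For the nearest EB site the miR-290 cluster falls in the first bin, with 2.59% of genes, and the miR-302 cluster in the bin from 5 to 10 kb, with 5.38%.

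In the distance to the nearest site the clusters differed between the lists. The nearest EB site was 1290 bp from the miR-290 cluster and 9055 bp from the miR-302 cluster, and 1.43% and 9.60% of the 1468 miRNA genes had a nearer one. A cluster was measured from its nearest hairpin and the other miRNA genes singly, which favours the clusters. Mir290 itself lay 3423 bp from the EB site. The nearest ESC site was 11935 bp from the miR-290 cluster, with 19.3% of miRNA genes nearer to one, and 98885 bp from the miR-302 cluster, with 72.0% nearer. The median miRNA gene was 42214 bp from an ESC site and 78190 bp from an EB site.

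Larp7 encodes a protein that binds and stabilises the 7SK RNA, through which the elongation factor P-TEFb is held inactive. Over its body of 16395 bp the RAD21 libraries stayed close to IgG. There were 96 ESC RAD21, 66 EB RAD21, 81 ESC IgG and 54 EB IgG reads, with RAD21 over IgG at 1.09 (0.802 to 1.48) in ESCs and 1.09 (0.752 to 1.60) in EBs. Within 2 kb of its start there were 32 ESC RAD21, 39 EB RAD21, 28 ESC IgG and 12 EB IgG reads. This window takes in the EB site of 4930422G04Rik. EB RAD21 stood 2.91-fold (1.49 to 6.10) above EB IgG and 2.16-fold (1.32 to 3.56) above ESC RAD21, whereas ESC RAD21 over ESC IgG was 1.05 (0.612 to 1.81). Within 2 kb of all 21418 autosomal protein-coding gene starts, RAD21 over IgG was called above 1 at 10.4% in ESCs and 12.3% in EBs, and the EB over ESC RAD21 ratio was called higher at 9.89% and lower at 5.25%.

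Genes of the same pathways were counted within 2 kb of their starts. Of 10 genes for miRNA processing and its control, ESC RAD21 over IgG was called above 1 for Dicer1, the enzyme that cuts hairpins, at 2.55 (1.15 to 6.21), and for Eif2c2, the Argonaute 2 gene, at 5.70 (2.20 to 18.8). In EBs it was called for Eif2c2, at 11.2 (2.79 to 97.5). Eif2c2 held 31 ESC RAD21, 25 EB RAD21, 5 ESC IgG and 2 EB IgG reads, so its ratios rest on few IgG reads. The counts of 2 and 1 of 10 stand beside the 10.4% and 12.3% of all gene starts, and with 10 genes are not set apart from them. Eif2c2 was also the one gene of this list with a deposited site within 2 kb, an ESC site 1985 bp from its start. Its nearest EB site, at 2007 bp, lay just past this limit. No EB over ESC ratio was called for the 10 genes, which included Drosha and Dgcr8 of the nuclear processor and Lin28a and Lin28b, blockers of let-7 maturation.

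Of the 5 partners of Larp7 at the 7SK RNA, the kinase gene Cdk9 was called above IgG in both cell types, at 2.30 (1.07 to 5.36) in ESCs and 2.46 (1.06 to 6.40) in EBs. For the cyclin genes of P-TEFb the RAD21 libraries differed in opposite directions. Ccnt1 held 30 ESC RAD21, 6 EB RAD21, 18 ESC IgG and 4 EB IgG reads, and its EB over ESC ratio was 0.354 (0.121 to 0.865) for RAD21 and 0.404 (0.0995 to 1.23) for IgG. Ccnt2 held 16, 33, 17 and 11 reads in the same order, and its ratio was 3.65 (1.96 to 7.11) for RAD21 and 1.18 (0.498 to 2.66) for IgG. EB RAD21 over EB IgG was called for Ccnt2 as well, at 2.69 (1.32 to 5.89). With 5 genes, the 1 call in ESCs, the 2 in EBs and the 1 in each direction between them are likewise not set apart from the shares of all gene starts. Hexim1 and Mepce, the inhibitor of P-TEFb and the capping enzyme of 7SK, were not called in any comparison.

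Among 19 other miRNA genes, including the miR-17 to miR-92 and miR-106b to miR-25 clusters, which carry related seeds, RAD21 over IgG was called above 1 for 2 in ESCs and 1 in EBs. The 2 in ESCs were the neighbours Mir143 and Mir145, at 2.02 and 1.96, whose windows overlap, so these calls are not independent. The EB over ESC RAD21 ratio was called for 1 of the 19 genes, Mirlet7a-1, at 2.42 (1.48 to 4.02). Mirlet7a-1 held 30 ESC RAD21, 41 EB RAD21, 27 ESC IgG and 21 EB IgG reads. Its EB RAD21 over EB IgG ratio of 1.75 (1.01 to 3.11) was the one called in EBs. It belongs to the let-7 family, which accumulates as ESCs differentiate. For Mirlet7c-1 and Mirlet7g of this family the EB over ESC RAD21 ratio was not called, at 1.28 (0.656 to 2.43) and 1.27 (0.712 to 2.25). Of all autosomal miRNA genes, 7.15% were called above IgG in ESCs and 5.93% in EBs, and 3.81% were called higher in EBs. With 19 genes, the calls are not set apart from these shares.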

How the data were processed

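R1/E RAD21-GFP and IgG chromatin was sequenced by the authors, who deposited aligned positions of single reads (mm9), MACS peaks per cell type with a score, -10 times the log10 of the p-value, and summit heights, an unscaled read signal. The aligner is not given in the sources used here. Incomplete lines of the IgG files, 7 for ESCs and 1 for EBs, were skipped, and no position and strand was repeated in a file, so that counts are of distinct positions. Reads were moved to the centre of fragments of 205 bp (ESCs) or 196 bp (EBs) and counted with numpy 2.4.6. Intervals used scipy 1.17.1 and were checked on simulated reads. Where a count of 0 left a ratio without a finite value, the finite bound of its interval was given. The CTCF matrix was learned at 6936 ESC summits of even-numbered autosomes. All members and Larp7 were named, with the gene nearest to each site and the pathway lists. The members, lists and alternatives were chosen with earlier results of these data known. Alternatives changed the distance, score limit, overlap, flanks, counting window, scaling, read position and motif limit. Depth, tiles and miRNA genes were taken from the autosomes alone.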

Additional observations from a re-analysis of the deposited data

How the results depend on the processing

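Of 118 recomputed values, 107 stayed within 1.5 times the count or within the counting interval of the reported value and 11 moved, and no called difference changed its direction. Ratios that were not called did cross 1: the EB over ESC RAD21 ratio over the hairpins alone was 0.997 for the miR-290 and 0.886 for the miR-302 cluster, and the double ratio over IgG was 0.903 for the latter, against 1.20 as counted. At 50 kb the miR-290 cluster kept 2 ESC sites, and the miR-302 cluster had 0 ESC sites and 1 EB site. With a score of at least 100 the miR-290 cluster had 1 ESC and 1 EB site, and the miR-302 cluster had 0 EB sites. The EB over ESC RAD21 ratio around the miR-290 cluster was 1.22 as counted, 0.809 (0.459 to 1.38) without the reads within 500 bp of any summit, and 2.68 as a double ratio over IgG, where the EB IgG library gave 9 reads. The motif limit of 1e-04 gave 8 sites with a CTCF match in place of 3. The number of sites called in the direction of their list was 6 as reported and 4 to 6 under the other settings, though not of the same sites. Within 100 bp the site 13.8 kb before Mir290 was lost and that 79.6 kb after Mir295 gained, within 500 bp the site 11.9 kb before Mir290 was lost and the same one gained, and all 5 ESC sites were called with the shared sites set to 1. All 9 ratios kept their side of 1 under each. The number was lowest, at 3 ESC sites and 1 EB site, against windows of like GC content, a setting chosen after the data were seen, and both EB calls were lost when the shared sites were set to 1, at which their median ratio is 1.29. Within 100 bp of the summit the EB RAD21 library held no reads at the ESC sites 11.9 kb before Mir290 and 79.6 kb after Mir295. Using the EB summit for shared sites gave no value, because no site near the clusters was shared. The highest count at a site was 35 reads, which limits what can be seen, and intervals of the site ratios span several-fold, most of all where the EB libraries held few reads.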

Other observations

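Other miRNA genes with a site of 1 list alone within 2 kb were few. Of the 1468 autosomal miRNA genes, 22 had an ESC site without an overlapping EB site and 17 an EB site without an overlapping ESC site, and Mir293, Mir294 and Mir295 were 3 of the latter. The genes named next were chosen after their values were seen. Mir141 and Mir200c, members of the miR-200 family that keeps cells epithelial by acting on Zeb1 and Zeb2, lay 785 bp and 1193 bp from such an ESC site and share most of their reads. Around Mir141 there were 61 ESC RAD21 reads, 11 EB RAD21 reads, 17 ESC IgG reads and 7 EB IgG reads, and the EB over ESC RAD21 ratio was 0.320 (0.152 to 0.613). Mirlet7i, of the let-7 family, lay 1429 bp from such an EB site. It had 30 ESC RAD21 reads, 63 EB RAD21 reads, 19 ESC IgG reads and 17 EB IgG reads, and its ratio was 3.72 (2.37 to 5.95). Not every gene went with its list. Mir1199, 1581 bp from such an EB site, had a ratio of 0.542 (0.283 to 0.983). The sites were listed from these same reads, so these ratios are descriptions.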
